A study of Mus musculus with 12 samples.

Results

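The integrated stress response genes described here are 32 genes around the transcription factor ATF4, found by symbol among the 30743 gene rows of the deposited table. All 32 have a row. They comprise 6 transcription factors and the transcriptional regulator Nupr1, 7 feedback and stress effectors, 5 enzymes of serine and one-carbon metabolism, 5 other amino acid enzymes and 8 tRNA synthetases. The RNA came from whole livers of male C57BL/6J mouse fetuses at gestational day 15 ± 0.5. The control group held 6 livers from dams on a diet with 13.5 kcal% fat, and the high-fat diet (HFD) group held 6 livers from dams on 60 kcal% fat. Dams of both groups ate their diet for 12 to 14 weeks. The labels do not say how many dams the fetuses of a group came from. The value analysed for each gene is the authors' average log2 CPM (read counts scaled to a common library size) over all 12 livers together. It holds neither the value of any single liver nor a difference between the diets, so no level below has an SD, and none bears on an effect of HFD. The table's other measurement columns are the authors' own comparison of the diets and were not used here.

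In the integrated stress response, kinases that sense amino acid shortage, unfolded protein, viral RNA or heme shortage phosphorylate the initiation factor eIF2. Protein synthesis then falls, while translation of Atf4 mRNA rises. ATF4 pairs with C/EBP proteins and activates genes for amino acid synthesis, amino acid uptake and the charging of tRNA, together with inhibitors that end the response. The heme-regulated kinase is best known from red cell precursors, which fill the fetal liver at this stage. Because ATF4 is regulated mainly at translation, the level of its mRNA does not give the activity of the protein.

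ATF4 and C/EBP partners bind a composite element whose core is searched here as TGATGNAA on either strand, where N is any base (TTNCATCA when read on the opposite strand). The search covered 300 bases around each annotated start site, 250 before it and 50 after it, in the RefSeq promoters of build GRCm38.p6, the build of the authors' mm10 alignment. Of the members, 28 had promoters in that table, with 31 windows in all, and Cars, Cth, Nars and Wars did not. The element was found in 9 of the 28 members (32.1%), against 4.51% of 27025 genes with a promoter and 2.74% of the 6863 promoter genes above 1 CPM in these livers. The 28 members were not filtered by level, and Atf3 and Vldlr, which have the element, lay under 1 CPM. Members were listed as ATF4 targets, and such elements were part of how the field came to know several of them. The share among members is therefore a description and no independent evidence. The form with C as the sixth base was found in 6 members, against 1.03% of all genes.

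The matches are shown because this element is the one through which ATF4 is known to act, although 19 of the 28 members had none in the window. For each of the 9 genes 1 match is printed 5′ to 3′ on the strand of its gene, with the element in capitals. The capitals differ between genes at the free position and in the strand on which the element reads.
Atf3 (chr1:191183410-191183469, minus strand): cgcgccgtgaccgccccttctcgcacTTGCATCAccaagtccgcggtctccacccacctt
Nupr1 (chr7:126625547-126625606, minus strand): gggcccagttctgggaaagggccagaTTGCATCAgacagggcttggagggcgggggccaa
Chac1 (chr2:119351023-119351082, plus strand): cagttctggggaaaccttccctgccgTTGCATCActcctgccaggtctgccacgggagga
Vldlr (chr19:27216794-27216853, plus strand): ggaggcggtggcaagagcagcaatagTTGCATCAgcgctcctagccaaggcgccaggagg
Pycr1 (chr11:120643818-120643877, minus strand): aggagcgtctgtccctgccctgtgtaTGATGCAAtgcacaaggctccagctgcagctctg
Aars (chr8:111033704-111033763, plus strand): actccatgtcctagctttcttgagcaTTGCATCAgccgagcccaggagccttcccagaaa
Asns (chr6:7693210-7693258, minus strand): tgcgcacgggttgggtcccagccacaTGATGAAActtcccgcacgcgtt
Gars (chr6:55037945-55038000, plus strand): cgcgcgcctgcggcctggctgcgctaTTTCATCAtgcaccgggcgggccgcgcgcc
Trib3 (chr2:152344028-152344057, minus strand): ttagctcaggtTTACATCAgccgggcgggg

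In 8 of the 9 genes a match lay before the start site. It began 200 bases before the start in Vldlr and 193 in Chac1. In Aars, Atf3, Nupr1 and Pycr1 it began at 112, 110, 110 and 103 bases. In Gars and Asns it lay closest, beginning 30 and 23 bases before the start. The match of Trib3 began 14 bases after the start, and Aars had a further match, not printed, 9 bases after it. By role, the element was found in 2 of 7 transcription factors and regulators, 3 of 7 feedback and stress effectors, 2 of 4 other amino acid enzymes and 2 of 5 tRNA synthetases that had a promoter. It was found in 0 of 5 serine and one-carbon enzymes. No match says only that these letters are not in the window.

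**Figure D1:**
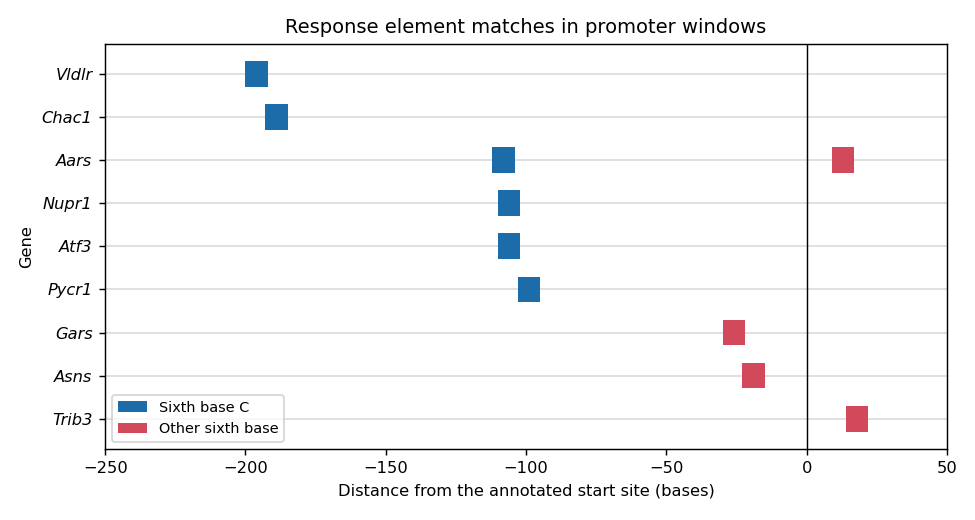
Each line is the promoter window of a member with a match, from 250 bases before to 50 bases after the annotated start site (horizontal axis, bases), and each bar is a match of 8 bases. Bars with C as the sixth base lie between 200 and 103 bases before the start, and those with another base lie near or after it.

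Reads per gene were read back from the level. In the authors' table the lowest average log2 CPM was -2.71, shared by 11091 rows, and the next values rose in steps of 1 read over all livers, if a prior count of 2 was added to each library. Of 4222 rows with an estimated 1 to 10 reads, 99.7% lay within 0.1 of a whole number. The lowest value then corresponds to a mean effective library of 13129748 reads. Because effective sizes are normalized, the reads of single libraries are not known from this. A gene at the lowest value is described as listed at 0, and 3 reads over all libraries would be 0.0190 CPM. Intervals below are exact Poisson intervals of the estimated reads and cover counting error only. The labelled tissue was checked on its markers. Alb, Afp, Ttr and Apoa1, proteins secreted by hepatocytes, had average log2 CPM from 11.34 to 15.95. Alas2, the heme synthesis enzyme of red cell precursors, had -0.51. Hbb-bt and Hba-a1 had no row under these symbols.

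Levels of the members ran from 0 reads to an average log2 CPM of 9.56, against 15.95 for Alb. Of 32 members, 24 had an average above 1 CPM, 29 had reads and 3 were listed at 0. Over the table, 33.1% of all rows and 51.8% of the rows with reads lay above 1 CPM. All counts above 1 CPM use the level with the prior count, and Stc2 passes only with it. The median member had an average log2 CPM of 3.72, above 74.2% of the 19652 rows with reads. To compare genes with each other, CPM without the prior count was divided by exon length, the union of all annotated exons in GENCODE M21. Per kb of exon, the median of 15714 coding genes with reads was 0.418 CPM, and 22 members lay above it. With no spread over livers, neighbours in the order of levels cannot be told apart by their error.

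**Figure D2:**
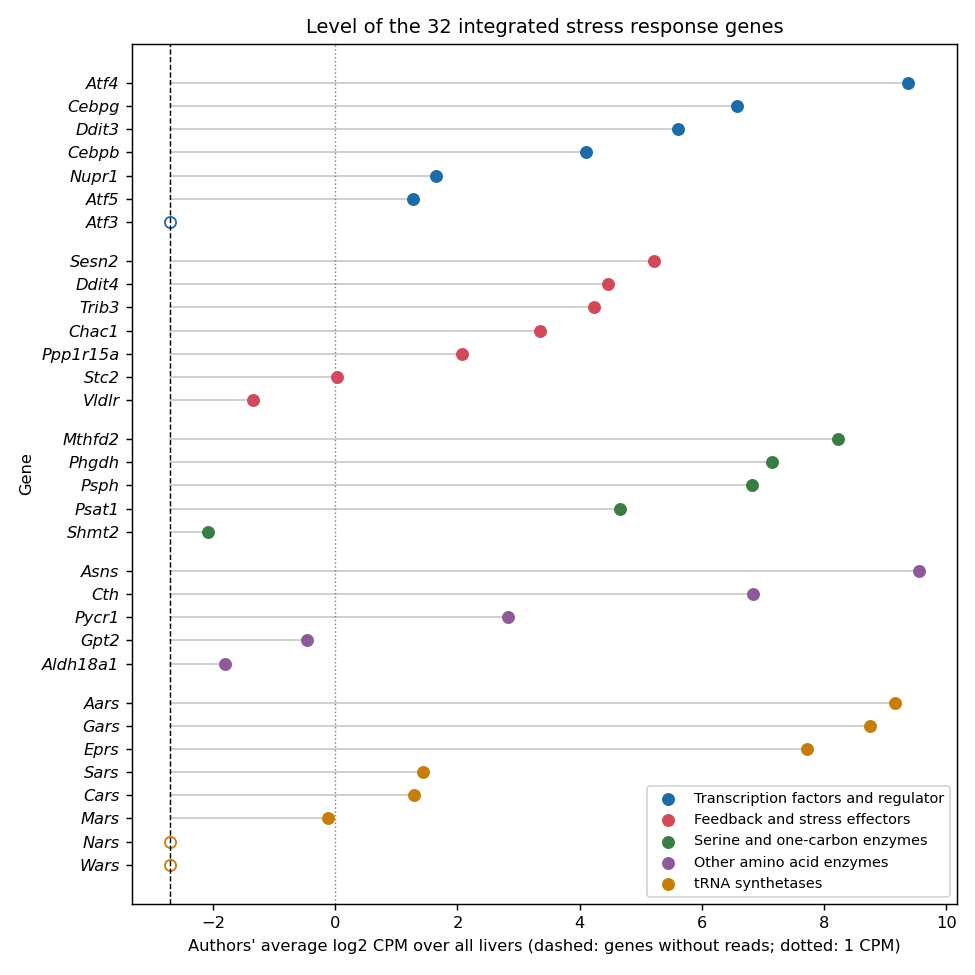
Points give the authors' average log2 CPM over all 12 livers for each member (horizontal axis), grouped by role; the dashed line at -2.71 marks genes without reads and the dotted line 1 CPM. Open points are Atf3, Nars and Wars, listed at 0.

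Among the transcription factors, Atf4 stood far above the rest. Atf4 (chr15:80255184-80257541, plus strand) had an average log2 CPM of 9.38, about 105059 reads over all livers, and 283 CPM per kb, the highest level per length of the members. Its C/EBP partner Cebpg (chr7:35046422-35056573, minus strand) had an average log2 CPM of 6.57 and 16.9 CPM per kb. Cebpb, a C/EBP factor of acute phase and stress responses, had 4.10 on the log2 scale and 11.3 CPM per kb. The level of Cebpg per length was thus above that of Cebpb, and Atf4 lay 16.8-fold above the first and 25.1-fold above the other.

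Ddit3 encodes CHOP, the factor that links a lasting stress response to cell death. It had an average log2 CPM of 5.61, about 7672 reads, and 28.4 CPM per kb. GENCODE lists 2 overlapping coding genes under this symbol, and the longer was used for its length (chr10:127290774-127296288, plus strand). Nupr1, a small stress-induced regulator of transcription, had an average log2 CPM of 1.65, and Atf5, a relative of ATF4 that is also controlled at translation, had 1.27. Per length these were close, at 1.19 and 1.13 CPM per kb. Atf3 (chr1:191170296-191218039, minus strand), an immediate stress factor whose promoter holds the element printed above, was listed at 0. Atf4, in contrast, had no match in its window and the highest level per length.

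Of the 7 feedback and stress effectors, 6 lay above 1 CPM, and none reached the level of Atf4 or Asns. Sesn2 and Ddit4 encode stress-induced inhibitors of the growth kinase complex mTORC1. Sesn2 (chr4:132492032-132510501, minus strand) had an average log2 CPM of 5.21, or about 5798 reads, and 10.6 CPM per kb. Ddit4 (chr10:59949669-59951834, minus strand) had 4.46 on the log2 scale and 12.5 CPM per kb. Trib3, a pseudokinase that restrains ATF4, had 4.24 on the log2 scale, about 2963 reads, and 8.85 CPM per kb. Chac1, an enzyme that breaks down glutathione, had 3.35 on the log2 scale, about 1581 reads, and 6.13 CPM per kb. These 4 genes lay within 2.04-fold of each other per length.

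Ppp1r15a, which encodes GADD34 and guides a phosphatase to eIF2 so that the response ends, had an average log2 CPM of 2.07 and 1.38 CPM per kb. Its constitutive relative Ppp1r15b had 7.51 on the log2 scale and 32.6 CPM per kb, so the pair differed 23.6-fold per length. Stc2, a secreted glycoprotein, had an average log2 CPM of 0.02, about 136 reads. This was 1.02 CPM with the prior count and 0.863 CPM without it. Vldlr, a lipoprotein receptor, had -1.35, about 38 reads (95% interval 26.9 to 52.2), and 0.0238 CPM per kb, the lowest level per length among the members with reads.

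The serine and one-carbon enzymes had the highest median level per length of the 5 roles, 26.1 CPM per kb. Serine is made from a glycolytic intermediate by Phgdh, Psat1 and Psph in turn. Phgdh (chr3:98313170-98339990, minus strand) had an average log2 CPM of 7.15, about 22402 reads, and 57.2 CPM per kb. Psph, the enzyme of the last step, had 6.82 on the log2 scale and 26.1 CPM per kb. Psat1, the enzyme between them, had 4.66 on the log2 scale and 5.91 CPM per kb. The middle step thus had the lowest level of the pathway in this table, 9.68-fold under Phgdh per kb of the union of exons. Psat1 has 2 curated RefSeq transcripts, and Phgdh and Psph have 1 each. The part of the annotation in this difference was not tested.

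Mitochondrial one-carbon metabolism starts with Shmt2, which takes the carbon unit from serine, and goes on with Mthfd2. Mthfd2 (chr6:83305691-83325908, minus strand) had an average log2 CPM of 8.23, about 47416 reads, and 86.3 CPM per kb. Shmt2 (chr10:127517123-127522444, minus strand) had -2.09, about 13 reads over all livers (95% interval 6.92 to 22.2), and 0.0266 CPM per kb. In this table, consecutive enzymes of the same route thus stood near the top and near the bottom of the members. Shmt2 has 2 curated RefSeq transcripts and Mthfd2 has 1. Low entries are also described below for genes that every cell needs, and the part of the annotation in this gap was not tested. The cytosolic counterpart Shmt1 had an average log2 CPM of 6.40.

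Among the other amino acid enzymes, Asns, which makes asparagine and is a classical ATF4 target, had the highest average log2 CPM of all members. Asns (chr6:7675169-7693254, minus strand) had 9.56, about 119027 reads, and 276 CPM per kb. Cth, which makes cysteine, had 6.83 on the log2 scale and 40.7 CPM per kb. Aldh18a1 and Pycr1 act in the synthesis of proline. Pycr1 had an average log2 CPM of 2.83 and 1.77 CPM per kb, and Aldh18a1 had -1.81, about 21 reads (95% interval 13.0 to 32.1). Gpt2, the mitochondrial alanine aminotransferase, had -0.47, about 90 reads.

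**Figure D3:**
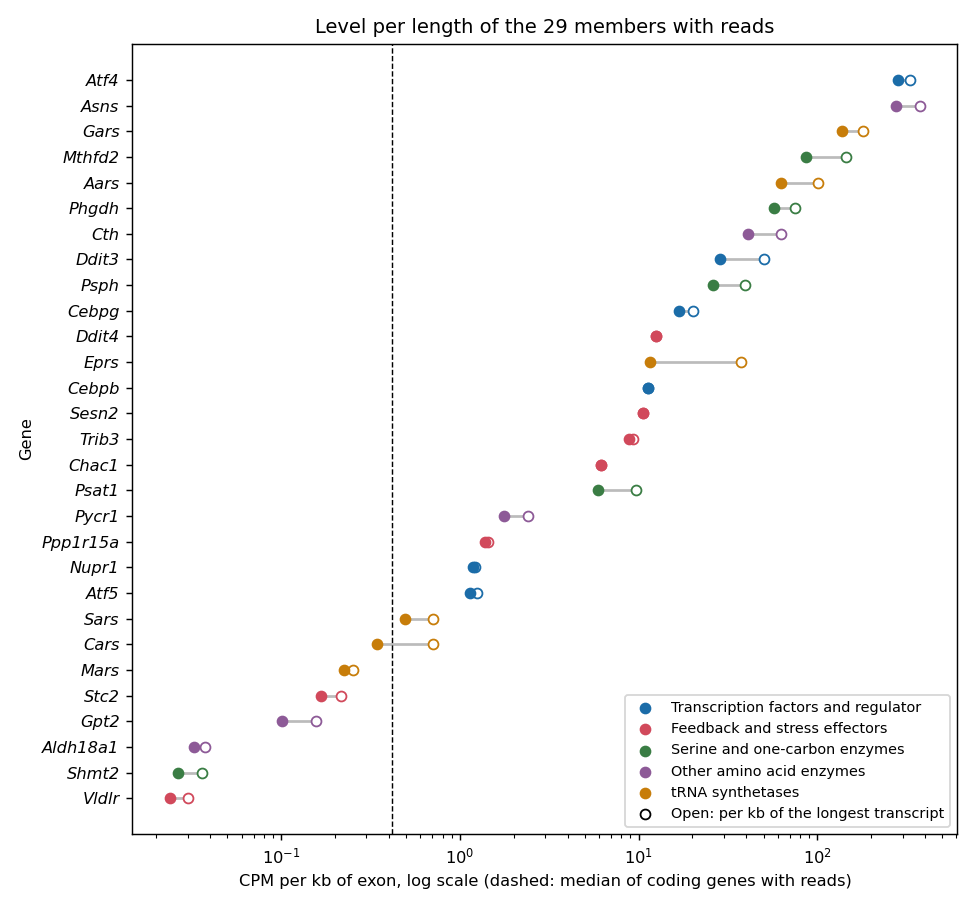
Filled points give CPM per kb over the union of exons (log axis) for the 29 members with reads, and open points the same reads per kb of the longest transcript; the dashed line is the median of coding genes with reads by the union of exons, 0.418. Atf4 and Asns lie at the top and exchange places with the length used, and Eprs moves most, from 11.6 to 37.3.

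The union of exons is long where rare transcripts keep introns. With the longest transcript instead, Asns had 375 CPM per kb and Atf4 330, so that Asns came first. Eprs rose from 11.6 to 37.3 CPM per kb, Cars from 0.345 to 0.705 and Ddit3 from 28.4 to 50.3. Psat1 had 9.60 CPM per kb by this length and Psph 39.2, both still under Phgdh at 75.1.

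The tRNA synthetases ran from levels near those of Atf4 and Asns down to 0. These enzymes join each amino acid to its tRNA, and every cell needs all of them. Aars, for alanine, had an average log2 CPM of 9.17 and about 91047 reads. Gars, for glycine, had 8.75 and about 67839 reads, and at 138 CPM per kb it was the highest synthetase member per length. Eprs, which charges both glutamate and proline, had 7.72. Sars had 1.43, Cars had 1.28 and Mars had -0.12, or about 400, 358 and 121 reads. Nars and Wars, for asparagine and tryptophan, were listed at 0. Of the 8 synthetase members, 5 lay above 1 CPM.

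The 12 other cytosolic synthetases also ran from high levels to 0. Of these, 10 lay above 1 CPM, with Iars at the top (8.45 on the log2 scale), and Kars had -1.60 and Farsb was listed at 0. Since no cell can do without these enzymes, a low entry in this table cannot be read as a silent gene. Low entries were also found among genes that most cells use. Actb had an average log2 CPM of 11.33 and Hprt 8.22, but Gapdh had 2.38, Ppia had -2.60 with about 2 reads, and Ubb was listed at 0. These genes were chosen after values of the table had been seen.

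The members' levels differed by the number of transcripts in the annotation, with exceptions both ways. By RefSeq, 18 members have 1 curated transcript, 9 have 2 and 5 have 3 or more. The median average log2 CPM was 4.84 in the members with 1, 1.43 in those with 2 and -1.35 in those with 3 or more. Members with 1 curated transcript were above 1 CPM in 16 of 18 cases, and those with 3 or more in 2 of 5. Of the members under 1 CPM, Aldh18a1, Mars, Nars, Shmt2, Vldlr and Wars have 2 or more curated transcripts, whereas Atf3 and Gpt2 have 1. In the other direction, Atf4, Eprs, Ddit3, Psat1, Sars and Cars lay above 1 CPM with 2 curated transcripts, Cebpb with 3 and Pycr1 with 6. Their average log2 CPM ran from 1.28 in Cars to 9.38 in Atf4. Outside the members, Ppia, Rars2, Yars2 and Wars2 have 1 curated transcript and lay at 0 to 3 reads, and Lars2, with 3, had 11.97 on the log2 scale.

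Over all 20 cytosolic synthetases listed, the median was 8.00 on the log2 scale for the 11 with 1 curated transcript, 1.35 for the 6 with 2, and -2.71 for the 3 with 3 or more, Kars, Nars and Wars. All 11 with 1 curated transcript were above 1 CPM. Over all coding genes the medians were closer, at -0.34, -0.80 and -0.97, and the share listed at 0 ran the other way, at 24.3%, 19.3% and 17.7%. Over the coding genes with reads the medians were 2.25, 0.21 and -0.26, and 29.4%, 13.0% and 8.44% of the genes lay above 32 CPM. How the authors assigned reads to genes that have several transcripts is not given in the sources used here, and the part of the annotation in these levels was not tested. Overlap with other genes was small in the low members: another gene covered 0% of the exon bases of Aldh18a1, Nars, Vldlr and Wars, 1.03% of Shmt2 and 1.99% of Mars.

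**Figure D4:**
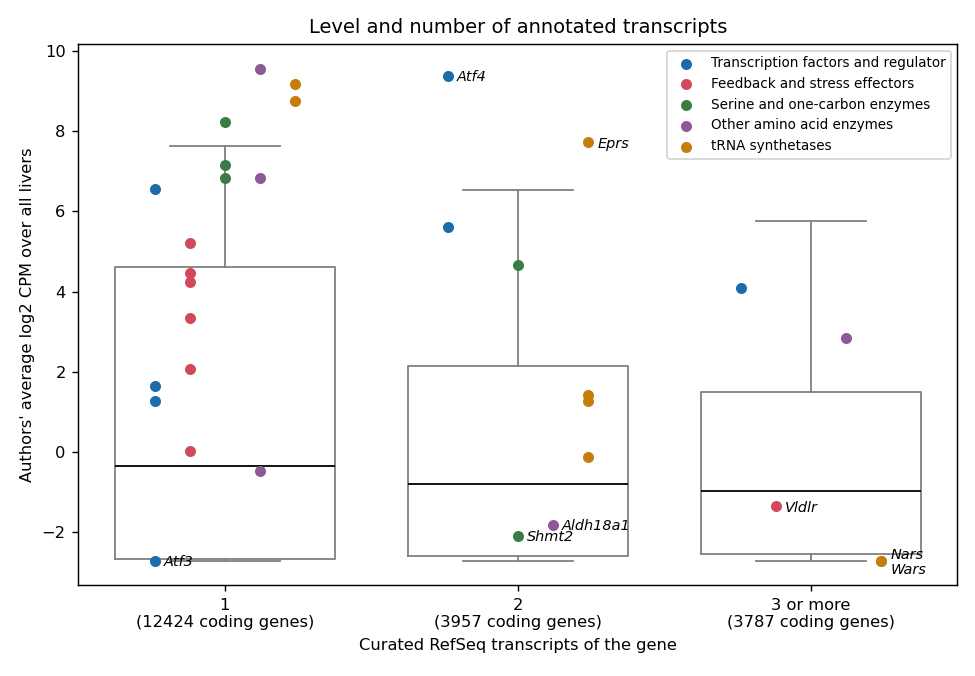
Boxes give the quartiles and median, and whiskers the 5th and 95th percentiles, of the authors' average log2 CPM in all coding genes, by the number of curated RefSeq transcripts; points are the 32 members, coloured by role. The members' medians fall from 4.84 to 1.43 to -1.35 across the classes, and Nars and Wars lie on the same spot at -2.71.

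Upstream of ATF4, of 15 genes for eIF2, its kinases, its exchange factor eIF2B and their regulators, 13 lay above 1 CPM, with a median average log2 CPM of 6.35, against 51.8% of all rows with reads above 1 CPM. Eif2ak1, the heme-regulated kinase, had 9.37 on the log2 scale and 117 CPM per kb, the highest of the group. The other kinases had 16.5 CPM per kb (Eif2ak2, which senses double-stranded RNA), 3.51 (Eif2ak3, the PERK kinase of the endoplasmic reticulum) and 0.0973 (Eif2ak4, the GCN2 kinase of amino acid shortage). Eif2ak4 and Eif2b4, the 2 genes of this group under 1 CPM, have 3 curated transcripts each.

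Of 17 other enzymes of folate and amino acid metabolism, 13 lay above 1 CPM, from Glul (8.93 on the log2 scale) down to Gpt (-1.84). Of 17 mitochondrial synthetases, 12 lay above 1 CPM, with a median average log2 CPM of 2.99. Lars2 was far above the others at 11.97, about 633134 reads, and Rars2 and Yars2 were listed at 0. The entry of Lars2 was also above that of Actb, at 11.33. Whether all of its reads came from Lars2 mRNA was not tested. Across all 61 further genes of the pathway, 48 lay above 1 CPM and the median was 4.81 on the log2 scale, against 24 of 32 and 3.72 for the members.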

How the data were processed

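RNA of whole fetal livers, 6 from each diet group, was polyA-selected and sequenced. Reads were mapped by the authors to the mm10 genome (Subread 1.3.6-p1), gene annotation came from biomaRt, and edgeR gave their diet comparison. The submitters' processing notes also name cutadapt 1.2.1. The tool that counted reads, its rule for genes with several transcripts, the edgeR version and the normalization are not given in the sources used here. The deposited table holds 1 row per gene symbol with the average log2 CPM over all livers, which was used. Its fold changes, p-values and adjusted p-values, from a common and a tagwise dispersion, are the authors' own comparison and were not used, so no test of diet was made and the planned tests on counts were not run. The table assigns no value to a single liver.

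Members and lists were chosen with earlier results of these data known. All 32 members were described, and the 61 further pathway genes were summarised by counts with examples. Some items are not reported here. Reads were estimated as the rise over the lowest level times the prior count of 2 in 12 libraries. The computation was tested on simulated data made with the same prior count. That test cannot say which prior count the authors used, and totals of reads are estimates under this setting. Positions and lengths came from GENCODE M21 (GRCm38), with 32 members matched, and transcript numbers and promoters from RefSeq (GRCm38.p6), with 32 and 28 members matched. Mars was matched through its newer symbol. Computations used Python 3.11.15 with scipy 1.17.1, pandas 2.3.3 and numpy 2.4.6, and figures matplotlib 3.10.9.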

Additional observations from a re-analysis of the deposited data

How the results depend on the processing

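The median member lay at percentile 74.2 of genes with reads. It lay at percentile 83.5 of all rows of the table and at 50.1 of genes above 1 CPM, because each alternative changes which genes it is ranked among. No member's symbol stood on more than 1 row, so leaving out such members changed nothing. The number of members above the median level per length was 22, and 23 with the longest transcript and 20 against coding genes with 1 curated transcript, both chosen after seeing the data. Of the 9 members with the response element, 6 had C as the sixth base and 8 had a match before the start site. Not run, because they need values of single livers, were DESeq2, filters on low counts, other pseudocounts and leaving out each liver. No paired analysis was possible because the result comes from no test and the table has no column for a single liver. Depth limits the low members, where 13 to 38 reads over all livers stand behind Shmt2, Aldh18a1 and Vldlr.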
